A study of Mus musculus with 6 samples.

Results

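The Notch and Rbpj target loci are the genes Rbpj, Notch1, Notch2, Notch3, Hes1, Hes5, Hey1, Hey2, Heyl and Nrarp, 10 of the 22342 protein-coding genes of the mm9 GENCODE annotation on chromosomes 1 to 19 and X. The genes were listed by name as the pathway of Rbpj, for which Spen is a known corepressor. A peak belonged to a locus when it overlapped the gene or lay within 50 kb of it. By this rule the loci held 33 of 22698 peaks in the WT list and 29 of 23656 peaks in the Spen KO clone 3 list.

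The study asked how loss of Spen changes open chromatin, which ATAC-seq reads from where the Tn5 transposase inserts sequencing adapters. The cells were haploid mouse embryonic stem cells (mESCs) of mixed genomic background, grown in serum with LIF, and every line carried a doxycycline-inducible Xist transgene. HATX WT kept Spen, and most of the Spen gene was deleted in Spen KO clone 3, which is 1 clone, so the genotype and the clone cannot be told apart. In the labels, each line was sampled untreated and after 48 hr in doxycycline at 2 ug/mL. The lists name only the line, so their doxycycline state is unknown. Spen KO clone 2 was not analysed here.

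Each list holds the peaks that 2 technical replicates of a line shared under the authors' limit on the Irreproducible Discovery Rate (IDR). The authors deposited 1 value per replicate without naming its scale, so peaks are placed by percentile, the share of peaks in the same list with a lower value. The score is the mean of the replicate values. Peaks of the lists with 1 bp or more in common are called shared, and their rank shift is the Spen KO clone 3 score percentile less the WT score percentile. With 1 list per line no test between lines was possible. Instead, a shared peak is called higher or lower beyond the replicates when both replicate percentiles of a list lay above or below both of the other, and this spread is technical. Shares carry 95% Wilson intervals, which cover counting error only, and the read depth is unknown.

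Notch receptors are cleaved when a ligand on a neighbouring cell binds, and the released intracellular domain enters the nucleus and joins Rbpj on DNA. Without that domain Rbpj is bound by corepressors, among them Spen, which hold its targets silent. The Hes and Hey genes, which encode transcriptional repressors, and Nrarp, which encodes a feedback inhibitor, are the best known targets. In mESCs Notch signaling is best known for a role in the exit toward neural fates.

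Spen itself (ENSMUSG00000040761.9, chr4:141023805-141094512, minus strand) had 1 peak in each list, at its TSS. The replicate percentiles of that peak were 30.6 and 48.5 in WT and 61.0 and 24.7 in Spen KO clone 3. No other peak overlapped the gene in either list, so the lists do not check the deletion.

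Peaks at the member genes' own starts were found for the same genes in both lists. A TSS peak, with its midpoint within 1 kb of the start of a coding transcript, was found in both lists for 6 of 10 members (60%, interval 31.3 to 83.2), namely Notch2, Notch3, Rbpj, Hey1, Hey2 and Nrarp. Notch1, Hes1, Hes5 and Heyl had none in either list. Over all coding genes 44.6% had a TSS peak in WT, 40.8% in Spen KO clone 3 and 36.4% in both. No member had a TSS peak in WT alone or in Spen KO clone 3 alone (0 of 10, interval 0 to 27.8). Of coding genes 8.15% had a peak in WT alone and 4.36% in Spen KO clone 3 alone, and both shares lie within that interval.

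Of the receptor genes, Notch1 (ENSMUSG00000026923.8, chr2:26313423-26372183, minus strand) had no peak within 1 kb of its 4 annotated coding starts. The nearest was a shared peak in an exon of a noncoding Notch1 transcript at chr2:26356357-26356699, 2.81 kb downstream of the start at position 26359342. Its replicate values were 15.9 and 21.4 in WT, at percentiles 31.9 and 59.5, and 12.7 and 12.3 in Spen KO clone 3, at percentiles 20.5 and 20.9. It was lower in Spen KO clone 3 beyond the replicates, with a rank shift of -27.4. A WT-only peak at chr2:26314974-26315448, with its midpoint in a coding exon near the 3′ end of Notch1, had replicate percentiles of 17.3 and 27.0 and lay 14.1 kb from the nearest Spen KO clone 3 peak. Beyond the 3′ end of Notch1, the TSS peak of Sec16a at chr2:26300588-26301742 had percentiles of 79.5 and 78.6 in WT and 66.3 and 31.6 in Spen KO clone 3, a rank shift of -28.5. The remaining peak of the locus, at the start of another gene, had overlapping replicates.

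Notch2 (ENSMUSG00000027878.9, chr3:97817461-97954290, plus strand) had a TSS peak at chr3:97817065-97818114. Its replicate values were 19.3 and 13.3 in WT, at percentiles 47.5 and 19.4, and 10.8 and 13.9 in Spen KO clone 3, at percentiles 12.5 and 29.9. The replicates overlapped, so the rank shift of -14.4 lies within their spread. The strongest distal peak, in an intron of Notch2 at chr3:97828225-97828759, had percentiles of 85.9 and 83.5 in WT and 88.8 and 63.0 in Spen KO clone 3 and did not separate the lines either. A distal peak is any with no coding start within 1 kb of its midpoint. Every peak at the Notch2 locus was shared.

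Notch3 (ENSMUSG00000038146.7, chr17:32257765-32303825, minus strand) had a weak TSS peak at chr17:32303725-32304075, at percentiles 7.50 and 9.11 in WT and 12.3 and 3.62 in Spen KO clone 3, with overlapping replicates. A Spen KO clone 3-only peak at chr17:32228370-32228648, within the pseudogene Pdxk-ps, had percentiles of 9.75 and 18.8.

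Rbpj (ENSMUSG00000039191.6, chr5:53947018-54048684, plus strand), the DNA-binding protein of the pathway, had more peaks in Spen KO clone 3 than in WT, 7 against 5. Its 3 coding starts had 3 TSS peaks, all shared. The peak at the first start, chr5:53946674-53947164, had replicate values of 30.4 and 24.6 in WT, at percentiles 79.3 and 69.8, and 23.1 and 33.2 in Spen KO clone 3, at percentiles 69.9 and 89.4. That at chr5:53980328-53980995 was higher in Spen KO clone 3 beyond the replicates, at percentiles 65.2 and 64.7 against 62.2 and 51.8 in WT, with a rank shift of 7.39. Its replicate values were 23.2 and 19.5 in WT and 21.6 and 21.1 in Spen KO clone 3. These overlapped, so the difference is only one of rank within each list. That at chr5:53981307-53981939 had percentiles of 78.0 and 48.5 in WT and 64.5 and 59.7 in Spen KO clone 3, which overlapped.

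The distal peaks of Rbpj moved in both directions. One with a rank shift of 42.4 was 46.1 kb upstream of the first start, in intergenic sequence at chr5:53900669-53901147. Its replicate values were 13.1 and 16.9 in WT, at percentiles 17.6 and 39.5, and 21.9 and 21.4 in Spen KO clone 3, at percentiles 66.1 and 65.8. The strongest distal peak, downstream of the gene at chr5:54062665-54063188, was lower in Spen KO clone 3 beyond the replicates, at percentiles 86.3 and 85.5 against 94.6 and 95.5 in WT. Its nearest coding start was that of Cckar, 35.6 kb away, against 81.1 kb for Rbpj. The 2 further peaks were Spen KO clone 3-only. They lay 13.5 kb upstream of the first start at chr5:53933335-53933684, at percentiles 23.3 and 30.7, and in an intron of Rbpj at chr5:53966200-53966652, at percentiles 16.4 and 13.1.

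The surroundings of Rbpj also had more peaks in Spen KO clone 3 than in WT. Within 5 Mb of the gene 28 of 68 peaks of Spen KO clone 3 (41.2%) had no WT counterpart, only 2 of 41 peaks of WT (4.88%) had no Spen KO clone 3 counterpart, and the median rank shift of 39 shared peaks was 7.39. The part of this neighborhood in the values at Rbpj was not tested.

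Hes1 and Hes5 are the main Notch targets of the Hes family, and neither had a TSS peak in either list. A missing peak does not show that a start was closed. At Hes1 (ENSMUSG00000022528.7, chr16:30064470-30067882, plus strand) the only shared peak was distal, 16.9 kb downstream of the coding start at chr16:30082134-30082559. Its replicate values were 12.9 and 11.8 in WT, at percentiles 16.6 and 12.0, and 10.3 and 9.28 in Spen KO clone 3, at percentiles 10.6 and 7.39, which is lower beyond the replicates. Both further peaks of the locus were WT-only. They lay 26.0 kb upstream at chr16:30039263-30039654, at percentiles 31.1 and 24.0, and 5.18 kb downstream at chr16:30070405-30070807, at percentiles 2.16 and 4.29. All 3 peaks were intergenic.

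At Hes5 (ENSMUSG00000048001.7, chr4:154335032-154336480, plus strand) the strongest peak was WT-only. It lay 16.5 kb upstream of the start at chr4:154318360-154318720, with replicate values of 23.8 and 23.4, percentiles of 64.1 and 66.1 and an IDR of 6.98e-05. The start of Tnfrsf14 was nearer to this peak, at 15.9 kb. The peak was 19.9 kb from the nearest Spen KO clone 3 peak, and its score percentile of 65.8 was the highest of the members' WT-only peaks. The IDR of their other WT-only peaks ran from 0.00248 to 0.0441. A second WT-only peak followed at chr4:154320501-154320889, 14.3 kb upstream, at percentiles 35.5 and 45.4. Both were intergenic, and the remaining peak of the locus was shared and lay at the start of the neighboring gene Pank4.

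The sequences before the Hes1 and Hes5 starts carried Rbpj motifs although no peak covered them. In the 250 bp before the coding start, Hes1 held the Rbpj core motif TGGGAA, searched on both strands, 2 times and the longer GTGGGAA 1 time, and Hes5 held each 2 times. TGGGAA occurred in 21% and GTGGGAA in 5.11% of the same windows over all coding genes. The paired motif, GTGNGAA and TTCNCAC with 15 to 17 bases between them, was found for 1 of 22342 genes, and that gene was Hes1, 81 to 52 bases before the start. Both windows are shown (mm9, chr16:30065176-30065425 and chr4:154334782-154335031, plus strands) for these motifs, in capitals.
Hes1: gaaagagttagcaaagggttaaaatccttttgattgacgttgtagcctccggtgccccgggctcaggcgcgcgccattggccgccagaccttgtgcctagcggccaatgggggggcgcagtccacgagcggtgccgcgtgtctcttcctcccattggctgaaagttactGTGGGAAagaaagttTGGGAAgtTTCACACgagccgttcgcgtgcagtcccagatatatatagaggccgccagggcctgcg
Hes5: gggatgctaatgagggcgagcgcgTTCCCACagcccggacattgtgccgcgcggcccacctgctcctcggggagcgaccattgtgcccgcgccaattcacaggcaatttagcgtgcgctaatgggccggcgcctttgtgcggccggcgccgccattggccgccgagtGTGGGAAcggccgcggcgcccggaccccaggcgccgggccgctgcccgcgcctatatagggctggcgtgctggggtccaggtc
A match is a description of the sequence and not of binding. The observed over expected number of CpG in 1 kb around the start was 0.67 for Hes1 and 0.80 for Hes5. Among the 10282 coding genes with a ratio of at least 0.6, 78.5% had a TSS peak in at least 1 list.

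The second WT-only peak upstream of Hes5 also held GTGGGAA, which occurred in the middle 300 bp of 6.08% of WT peaks. It is shown with 40 bases to each side (mm9, chr4:154320585-154320671, plus strand), with the motif, as its reverse complement, in capitals.
Hes5 WT-only peak: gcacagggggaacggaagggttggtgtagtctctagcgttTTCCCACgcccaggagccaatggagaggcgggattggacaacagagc

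Hey1 (ENSMUSG00000040289.3, chr3:8663362-8667039, minus strand) had open chromatin at its start in both lines. The TSS peak at chr3:8666858-8667797 had replicate values of 26.7 and 19.3 in WT, at percentiles 71.8 and 51.1, and 16.1 and 15.9 in Spen KO clone 3, at percentiles 39.8 and 41.8. It was lower beyond the replicates, with a rank shift of -25.4, where the 10th percentile over all shared TSS peaks was -23.8. The median rank shift of 44 shared peaks within 5 Mb of Hey1 was 1.69, of the opposite sign.

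Hey2 (ENSMUSG00000019789.8, chr10:30552165-30562607, minus strand) had the strongest TSS peak of the members. At chr10:30562393-30563206 its replicate values were 43.7 and 48.2 in WT, at percentiles 93.3 and 96.2, and 36.9 and 43.9 in Spen KO clone 3, at percentiles 92.1 and 96.0. The replicates overlapped and the rank shift was -0.47. The distal peak of its window, at chr10:30530660-30531029, lay 31.8 kb from the Hey2 start and 7.93 kb from that of Ncoa7. That peak had percentiles of 62.9 and 57.1 in WT and 57.5 and 67.0 in Spen KO clone 3, which overlapped as well. The 250 bp before the Hey2 start (mm9, chr10:30562608-30562857, minus strand) held 1 GTGGGAA, shown in capitals as its reverse complement. It is shown beside Hes1 and Hes5 because this start had a listed peak and theirs had none.
Hey2: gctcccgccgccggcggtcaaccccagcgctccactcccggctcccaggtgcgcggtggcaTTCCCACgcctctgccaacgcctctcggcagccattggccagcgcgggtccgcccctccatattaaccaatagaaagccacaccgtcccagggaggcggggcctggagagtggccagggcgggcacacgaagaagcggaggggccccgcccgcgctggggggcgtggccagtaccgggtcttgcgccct

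Heyl (ENSMUSG00000032744.4, chr4:122910799-122927118, plus strand) had no TSS peak and no distal peak in either list. The 2 peaks of its window were shared and lay at the starts of the flanking genes Hpcal4 and Pabpc4.

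Nrarp (ENSMUSG00000078202.2, chr2:25036278-25038850, plus strand) had open chromatin at its start in both lines as well. The TSS peak at chr2:25035944-25036656 had replicate values of 17.8 and 21.0 in WT, at percentiles 40.7 and 58.2, and 14.6 and 11.7 in Spen KO clone 3, at percentiles 31.2 and 17.4. It was lower beyond the replicates, with a rank shift of -27.7. The 10th percentile of rank shifts over all shared TSS peaks was -23.8. The peak was also shorter, 713 bp in WT and 354 bp in Spen KO clone 3, a length ratio of 0.50. Of all shared TSS peaks 1.16% had a ratio of 0.50 or less.

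Around Nrarp, 2 distal peaks were WT-only, at chr2:25018581-25019313 with percentiles of 9.51 and 18.0 and at chr2:25048900-25049314, in a UTR of A830007P12Rik, with percentiles of 18.7 and 57.3. In contrast, the TSS peak of A830007P12Rik at chr2:25051997-25052501 was higher in Spen KO clone 3 beyond the replicates, at percentiles 79.6 and 51.3 against 35.5 and 40.8 in WT, a rank shift of 33.4. The 2 further shared peaks, at the starts of Cobra1 and Tubb2c, were lower beyond the replicates, with rank shifts of -20.2 and -9.63. Nrarp lay in surroundings that ranked lower as a whole, with a median rank shift of -7.03 over 104 shared peaks within 5 Mb. The same median was -9.46 around Notch1 on the same chromosome. The surroundings of Notch1 and Nrarp overlap, so these medians share peaks.

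**Figure D1:**
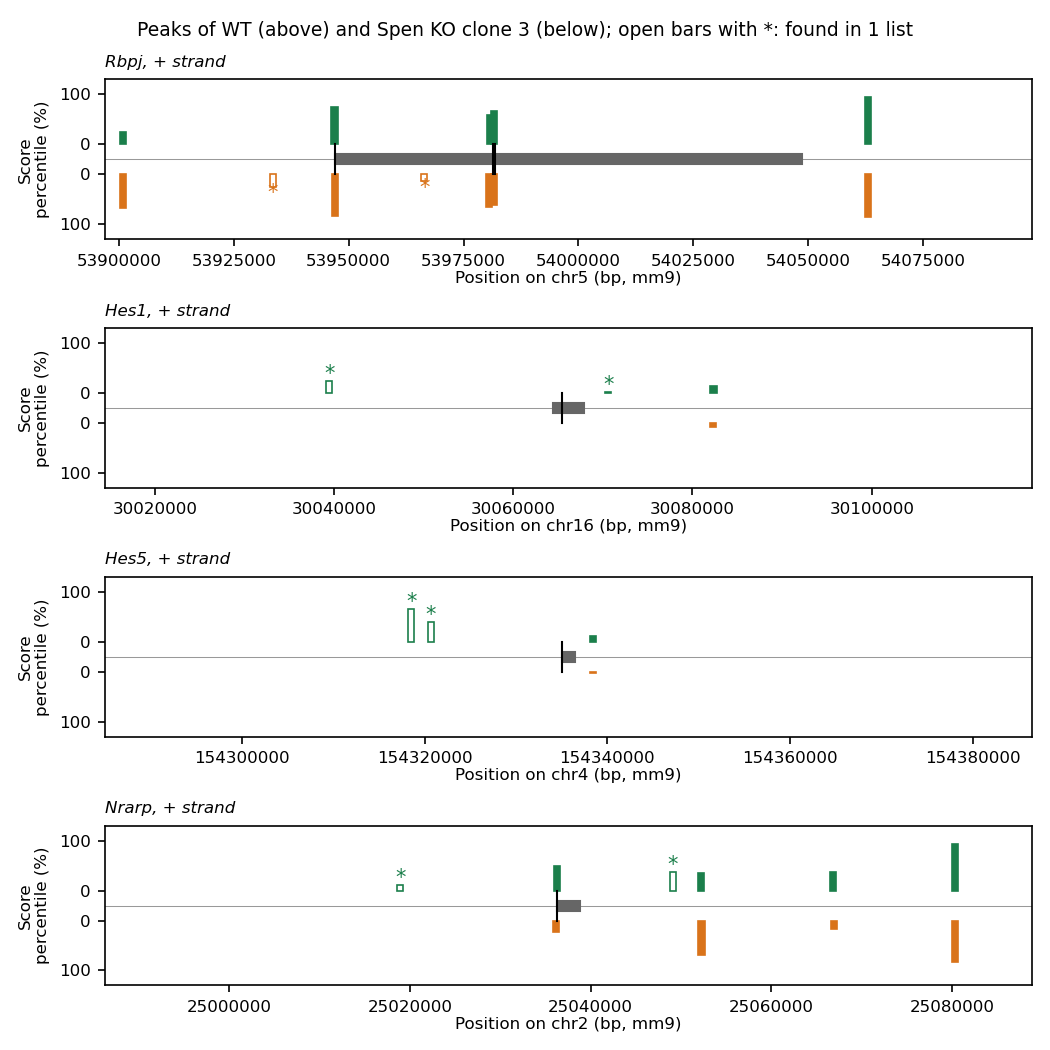
Peaks at Rbpj, Hes1, Hes5 and Nrarp by position (horizontal axis, mm9, with 50 kb to each side of the gene) and score percentile (vertical axis, 0 to 100%), WT above and Spen KO clone 3 below, with gene bodies in gray and coding starts as black lines. Bars have a fixed width and mark peak midpoints, and the open bars with an asterisk are the 2 peaks found in Spen KO clone 3 only at Rbpj and the 2 found in WT only at each of the others.

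Taking the loci as a set, 7 of 33 WT peaks were WT-only (21.2%, interval 10.7 to 37.8), close to the 25.7% of all WT peaks. Of the Spen KO clone 3 peaks 3 of 29 were Spen KO clone 3-only (10.3%, interval 3.58 to 26.4), against 28.6% of all peaks of that list, and 8 of 51 (15.7%) with a window of 100 kb. All of these peaks were distal. Of the distal peaks alone, 7 of 16 in WT (43.8%, interval 23.1 to 66.8) and 3 of 12 in Spen KO clone 3 (25%, interval 8.89 to 53.2) were found in 1 list only, against 29.5% and 37.7% over all distal peaks. None of the 17 peaks at coding starts was found in 1 list only, where the shares over all such peaks were 20.3% in WT and 13% in Spen KO clone 3.

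The peaks found in 1 list only were unevenly spread over the genes. Hes1, Hes5 and Nrarp had 2 WT-only peaks each and no Spen KO clone 3-only peak. Their surroundings leaned the same way, since the WT-only share of WT peaks within 5 Mb was 40.2% at Hes1, 31.4% at Hes5 and 30.2% at Nrarp, where the Spen KO clone 3-only share of Spen KO clone 3 peaks was 23.7%, 15.6% and 18.1%. These shares were 37.2% and 18.9% around Notch1, which had 1 WT-only peak. Around Notch2 they were 34.7% and 21.3% and around Notch3 42% and 25.1%, and neither gene had a WT-only peak. They were 27.3% and 22.3% around Heyl, 18.5% and 37.1% around Hey1 and 10.7% and 40.5% around Hey2. At Heyl, Hey1 and Hey2 every peak was shared. The windows of Notch2, Notch3, Heyl, Hey1 and Hey2 held only 2 or 3 peaks in each list. The part of the surroundings in these counts was not tested. At least 2 WT-only peaks and no Spen KO clone 3-only peak occurred in the windows of 9.03% of coding genes, against 3 of 10 members (30%, interval 10.8 to 60.3). Of coding genes with 2 to 6 WT peaks in the window, the range of the members, 13.2% showed this, which lies within that interval. Rbpj alone showed the reverse (10%, interval 1.79 to 40.4), which held for 5.03% of coding genes and also lies within the interval.

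Of the 26 shared peaks 13 were lower in Spen KO clone 3 beyond the replicates (50%, interval 32.1 to 67.9) and 3 were higher (11.5%, interval 4 to 29). Over all shared peaks these shares were 22.6% and 23.2%. With a window of 10 kb, 4 of 12 were lower (33.3%) and 1 was higher, and with 100 kb 16 of 43 were lower (37.2%) and 4 higher. Without the peaks at the starts of other genes, 7 of 17 were lower (41.2%, interval 21.6 to 64) and 2 were higher. That interval includes the 22.6% of all shared peaks. The 13 lower peaks were 2 TSS peaks of members, those of Hey1 and Nrarp, 5 distal peaks, and 6 peaks at the starts of other genes. The shared peaks within 5 Mb had a median rank shift below 0 for 7 of 10 members (70%, interval 39.7 to 89.2). The part of these surroundings in the 13 lower peaks was not tested.

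**Figure D2:**
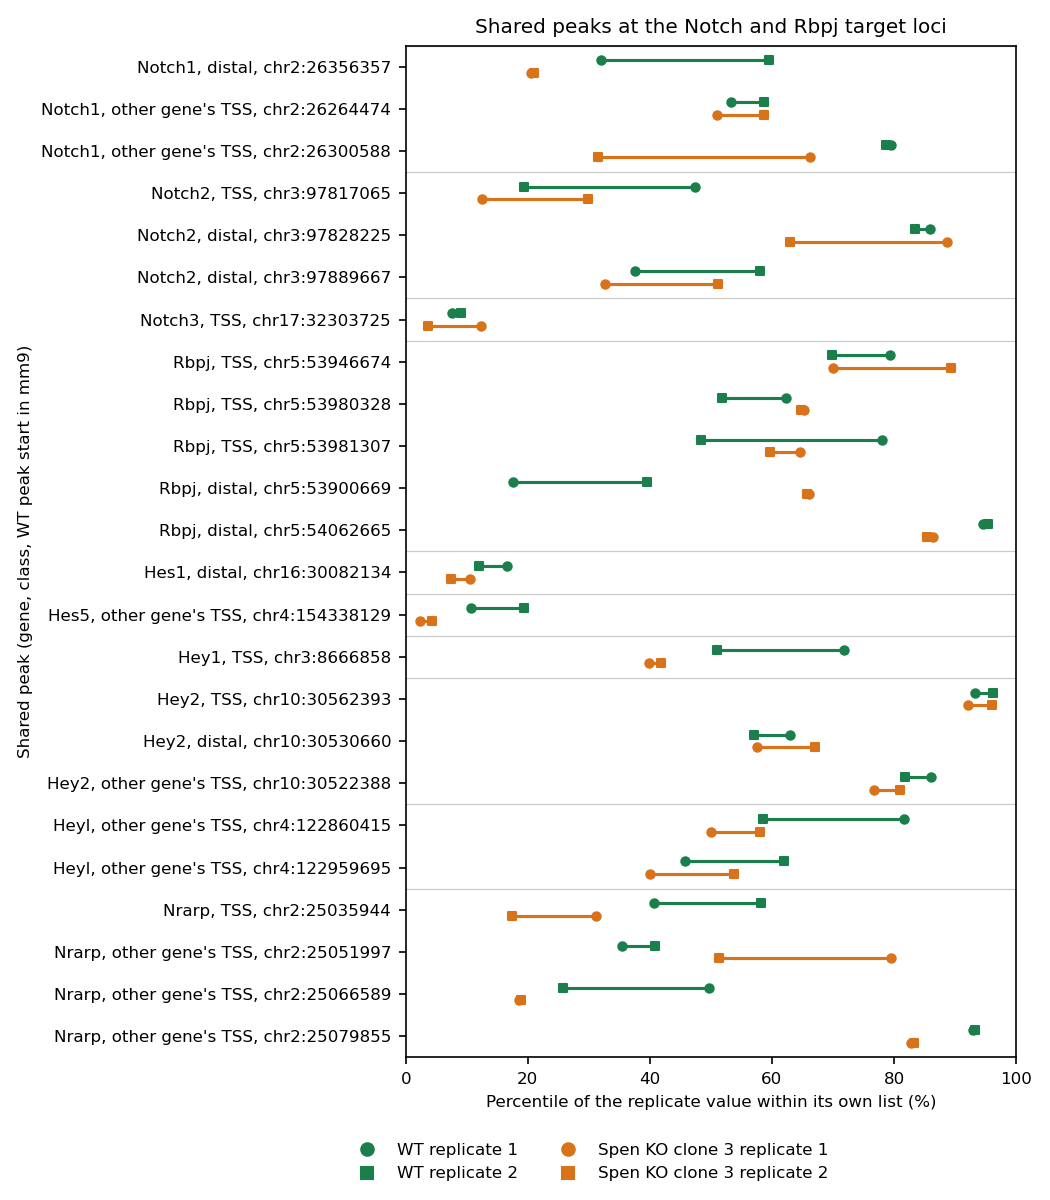
Percentile of each replicate value within its own list (horizontal axis, %) for 24 of the 26 shared peaks (vertical axis, by gene and class), with WT in green, Spen KO clone 3 in orange, replicate 1 as circles, replicate 2 as squares and a line joining the replicates. In 11 peaks both orange points lie left of both green points, and in 3 they lie to the right.

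Among the 8 shared TSS peaks of the members, 2 were lower and 1 was higher beyond the replicates, against 29% and 13.6% of all shared TSS peaks. The median rank shift was -2.85, and -2.65 over all shared TSS peaks. It changed sign, to 5.14, when replicate 1 was left out, and was -7.18 relative to the shared peaks within 5 Mb, TSS and distal together.

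Of the members' 9 shared distal peaks 5 were lower and 1 was higher beyond the replicates, against 17.4% and 31% of all shared distal peaks. Their median rank shift was -7.26, where that of all shared distal peaks was 3.12. All 9 had a GC content of 50 to 60% in the middle 300 bp of the WT peak, and the 4431 distal peaks in that range had a median of 1.20 and were lower in 21.2%. Relative to the shared peaks within 5 Mb the members' median was -3.42, closer to 0 than the -7.18 of the TSS peaks.

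Rbpj core motifs were found in 13 of 33 WT peaks (39.4%, interval 24.7 to 56.3) and in 11 of 29 Spen KO clone 3 peaks (37.9%, interval 22.7 to 56), counting TGGGAA in the middle 300 bp. Over all peaks the shares were 23.4% and 22.3%. Of the members' peaks 26 are shared between the lists, so the counts of the lists are not independent. In each list 9 of the peaks lay at the starts of other genes. GTGGGAA was in 5 peaks of each list, which is 15.2% of WT and 17.2% of Spen KO clone 3 peaks against 6.08% and 5.91% over all peaks. None of these peaks held the paired motif. Of the sequences that Hes and Hey proteins bind, the E box CACGTG, the class C box CACGCG, the related box CACGAG and the N box CACAAG were searched. Each was in 6.06 to 15.2% of the WT peaks and 6.9 to 13.8% of the Spen KO clone 3 peaks, and for each, in either list, the share over all peaks lay within the interval of the members.

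The wider Notch pathway lay near the background. Of 70 further pathway genes in the annotation 37 had a TSS peak in WT (52.9%) and 35 in Spen KO clone 3 (50%). Over all coding genes these shares were 44.6% and 40.8%. Those with a TSS peak in WT alone were Dlk2, a noncanonical ligand, Psen2, a presenilin of the gamma-secretase, the coactivator genes Crebbp and Snw1, and the corepressor-list genes Kdm5a and Rbbp8. Those with a TSS peak in Spen KO clone 3 alone were Lfng, which modifies Notch receptors with sugars, Numbl, and the corepressor genes Ncor1 and Tbl1xr1. These were 6 of 70 genes for WT and 4 of 70 for Spen KO clone 3, against 8.15% and 4.36% of all coding genes. Of 31 shared TSS peaks 10 were lower (32.3%) and 4 were higher (12.9%) beyond the replicates, near the 29% and 13.6% of all shared TSS peaks.

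The lower genes were the gamma-secretase genes Aph1b and Aph1c, the glycosyltransferase genes Pofut1 and Mfng, Neurl1a, Fbxw7, the coactivator genes Maml1 and Ep300, and the corepressor genes Ctbp1 and Sin3a. Their rank shifts ran from -31.4 at Neurl1a to -2.90 at Mfng. The higher genes included Psenen at 18.1, Mib2 at 10.5 and Tle1 at 0.81.

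Marker genes were used to check the cell type. Of 14 mESC markers 7 had a TSS peak in WT and 5 in Spen KO clone 3, near the share over all coding genes. Klf2, Klf5, Tbx3 and Zfp42 had a TSS peak in both lists, Sox2, Lin28a and Sall4 had one in WT alone and Klf4 in Spen KO clone 3 alone, whereas Pou5f1 and Nanog had none in either, although 4 peaks of each list lay in the window of Pou5f1. Of 6 neural markers 3 had a TSS peak in WT, Pax6, Olig2 and Neurog2, and none in Spen KO clone 3, where 8.15% of all coding genes had one in WT alone. For primitive endoderm 4 of 7 markers had a TSS peak in WT and 3 in Spen KO clone 3, against 44.6% and 40.8% of all coding genes. Of these 3, all shared, Dab2 and Foxa2 were lower beyond the replicates, with rank shifts of -42.6 and -24.9, and Pdgfra was higher at 10.9, so falls of the size seen at Hey1 and Nrarp also occurred among these markers. Of all shared TSS peaks 29% were lower and 13.6% were higher. TSS peaks were found for trophoblast in 1 and 2 of 5, for mesoderm none of 5 in either list and for fibroblasts 1 and 0 of 6. The shares over all coding genes were again 44.6% in WT and 40.8% in Spen KO clone 3. An open start does not show that a gene is expressed, and the part of other cell types in the values above was not tested.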

How the data were processed

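The data were lists of ATAC-seq peaks of HATX WT and Spen KO clone 3, with 2 technical replicates each. The authors used CutAdapt for trimming and Bowtie2 for mapping to mm9. By their account, reads with more than 1 mapping position, discordant pairs and duplicates (Picard) were discarded before MACS2, and IDR then limited the peaks to those that the replicates agreed on. They deposited other values too, namely the length of each peak and a value per replicate on an unnamed scale. The authors' differential test on read counts was not repeated, because reads were not used here, and presence in a list depends on the depth of that list.

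Sequences other than chromosomes 1 to 19 and X were left out, with 55 of 22753 WT and 66 of 23722 Spen KO clone 3 peaks. A WT peak was paired with the Spen KO clone 3 peak of largest overlap. Genes and starts came from GENCODE for mm9. Motifs were searched in the mm9 sequence on both strands, and GTGGGAA contains TGGGAA. Overlaps, percentiles, distances, windows and motif matches were tested on simulated data.

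The named peaks were every TSS peak of the members, the peaks found in 1 list only, the strongest distal peak of each member and the 3 largest rank shifts in each direction. Of these and of the pathway genes, 2 shared distal peaks and 1 gene are counted but not reported here. Kmt2d of the pathway list and Tfcp2l1, Tfap2c and Sox1 of the marker lists had no coding gene under that symbol. The members and lists were chosen with earlier results of these data known. The 5 Mb surroundings, GC ranges, peak lengths, the counts of genes by peaks found in 1 list only, windows of like peak number and the share lower beyond the replicates were chosen after seeing the data, as was naming further peaks and genes outside the rule. Alternatives varied the overlap, score limit, list length, window, start distance, transcripts, replicates, ranking and motif. Calculations used samtools 1.23.1, pysam 0.24.0, matplotlib 3.10.9, scipy 1.17.1, pandas 2.3.3, numpy 2.4.6 and Python 3.11.15.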

Additional observations from a re-analysis of the deposited data

How the results depend on the processing

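Of 37 alternative values 32 stayed within the interval or replicate spread of the reported value, 4 moved beyond it and 1 changed sign. For the median rank shifts, the values with 1 replicate left out set that spread. They could not move beyond it, so their staying within it is no check. The median rank shift of the members' shared TSS peaks ranged from -9.47 to 5.14 when either replicate was left out, while that over all shared TSS peaks ranged from -2.78 to -1.99. For the shared distal peaks the range was -8.07 to -6.00, against 2.45 to 3.34 over all. Subtracting the median of the shared peaks within 5 Mb, an alternative chosen after seeing the data, gave -7.18 for the TSS peaks and -3.42 for the distal peaks. That median takes TSS and distal peaks together, so these values are not comparable between the classes. The share of WT peaks with an Rbpj core motif was 57.6% over the whole peak, a longer sequence, where all WT peaks gave 40.9%, and that of Spen KO clone 3 peaks was 51.7%, where all gave 41.1%. With GTGGGAA, a rarer sequence, the WT share was 15.2% and the Spen KO clone 3 share 17.2%. The members with a TSS peak numbered 6 in each list under every start distance and transcript set tried. Counting peaks within 500 bp of each other as shared, also chosen after seeing the data, gave the same 7 WT-only and 3 Spen KO clone 3-only peaks in number. No paired analysis was possible because each line has 1 list and no test was made between them. The unknown read depth limits every statement on peaks found in 1 list only.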

Other observations

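Of 21 corepressor genes 12 had a TSS peak in each list (57.1%), 10 of them in both, with a median rank shift of -0.25. Among all coding genes 44.6% had a TSS peak in WT, 40.8% in Spen KO clone 3 and 36.4% in both. The median rank shift of all shared TSS peaks was -2.65. At Tle1, which encodes a Groucho family corepressor, the TSS peak was near the top of both lists.

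Hes6 was the only gene among Hes2, Hes3, Hes6, Hes7 and Helt with a TSS peak, at percentiles 86.8 and 90.2 in WT and 77.8 and 87.7 in Spen KO clone 3, which overlapped. The paralog gene Rbpjl and the receptor gene Notch4 had no TSS peak in either list.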
